A study of Blastobotrys raffinosifermentans with 8 samples.

Results

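The earliest response of the yeast Blastobotrys raffinosifermentans to protocatechuic acid was taken from 2 of the 8 arrays of the series, those of cells harvested 15 min after a change of medium. Wild-type cells of strain LS3 had grown overnight in minimal medium (YMM) with glucose and nitrate. They were pelleted and moved to fresh YMM with NaNO3 that held 1% glucose alone or 1% glucose together with 0.5% protocatechuic acid, so that both cultures went through the same change of medium and both had glucose. The remaining 6 arrays, of the same media after 30 min, 2 h and 5 h, are used here only to place the early values in time. The RNA of each culture was hybridized to 1 single-dye array with several probes of 60 bases for each gene, and no combination of medium and time was repeated. A difference between the media therefore has no replicate check, no test between cultures was possible, and the SD given beside a difference is the spread over the probes of a gene on the same pair of arrays. The arrays with protocatechuic acid lay in a different row of the slide from those with glucose, so that row and medium cannot be told apart.

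Protocatechuic acid is a dihydroxylated benzoic acid that microorganisms meet when plant aromatic compounds such as tannins and lignin are broken down. In many microorganisms a dioxygenase opens its ring directly. In other routes the carboxyl group is first removed or exchanged for a hydroxyl group, and an intradiol dioxygenase then opens the ring between neighbouring hydroxyl groups. The open chain, a muconic acid or a relative of it, is then passed through lactones and oxoadipate to intermediates of the central metabolism. Tannases act before this route by releasing gallic acid, and gallic acid decarboxylase removes its carboxyl group.

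On the array 6160 identifiers were represented, by 56312 probes. A gene was taken as measured on an array where at least 1 of its spots was well above background, and the 6036 identifiers measured on at least 1 of the 2 arrays were compared. Of these, 5761 were measured on both arrays, 111 only with protocatechuic acid and 164 only with glucose, while 124 identifiers were measured on neither. Each gene was given the median log2 level of its spots, and a difference is the level with protocatechuic acid minus the level with glucose, on the log2 scale throughout.

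At 15 min, 503 of the 6036 compared genes (8.33%) differed by at least 1 on the log2 scale, which is the size used below to call a gene higher or lower. With protocatechuic acid 376 genes (6.23%) were higher and 127 genes (2.10%) were lower. The higher genes also differed more. Of them, 101 differed by at least 2, 28 by at least 3 and 9 by at least 4, whereas among the lower genes 3 reached a difference of 2 and 0 reached 3. The median difference was 1.51 for the higher genes and -1.24 for the lower genes, and it was -0.11 over all compared genes. In 301 of the 376 higher genes and 111 of the 127 lower genes every probe differed in the direction of the gene. The genes nearest to the limit had differences of 1.002 and 0.998 on the higher side and of -1.0026 and -0.9996 on the lower side. The balance between the directions depended on the scaling, with 485 higher and 69 lower genes after a loess fit on level between the 2 arrays, and 780 higher and 719 lower genes with the scanner's processed signal scaled to the 75th percentile.

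**Figure D1:**
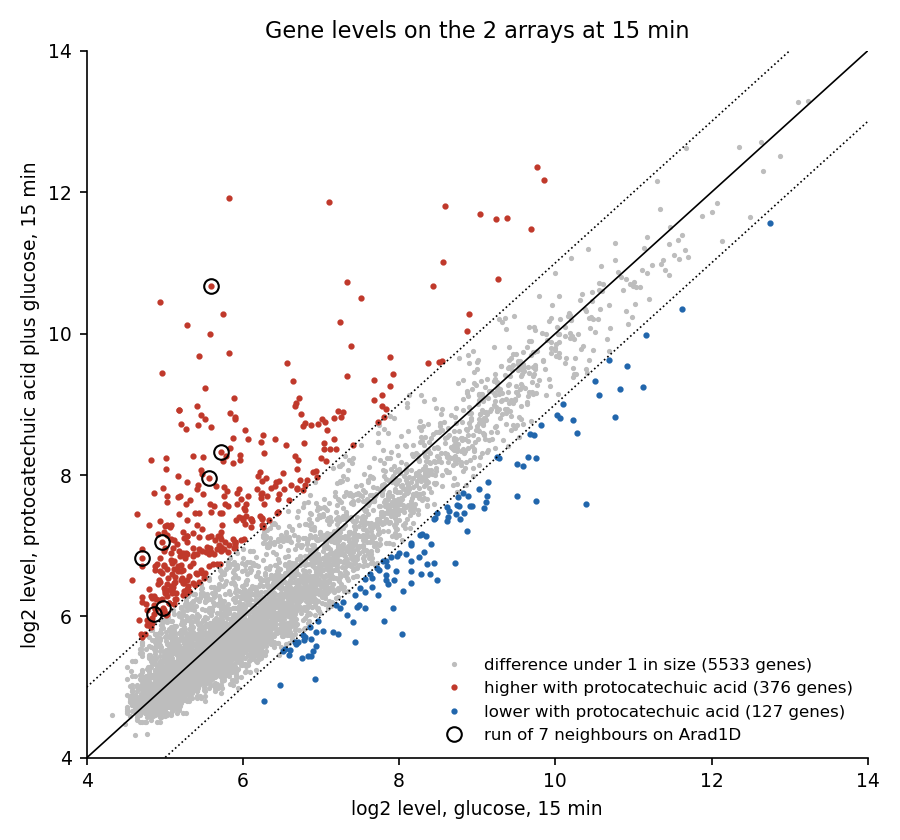
Each point is 1 of the 6036 compared genes, with its log2 level on the glucose array (horizontal axis) and on the protocatechuic acid array (vertical axis) at 15 min. The solid line marks equal levels and the dotted lines a difference of 1. The 376 higher genes in red reach differences of 6.11. Their median glucose level was 5.54, beside 5.73 over all compared genes. The 127 lower genes in blue stay within a difference of -2.80, and rings mark the 7 neighbouring genes of chromosome Arad1D.

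In the deposited log2 values the largest difference was found for ARAD1C42790g, for which the files give no name or function. Its level was 5.82 with glucose and 11.92 with protocatechuic acid at 15 min, a difference of 6.11 ± 1.22 (SD over 10 probes) or 68.8-fold. All of its 10 probes were higher with protocatechuic acid, by 4.01 to 6.97. At the later times its levels were 5.29, 5.01 and 5.53 with glucose and 5.50, 5.09 and 5.35 with protocatechuic acid, so that the protocatechuic acid array at 15 min stood alone among the 8. The second largest difference, that of ARAD1A09350g, had the same course. Its level of 4.93 with glucose and 10.44 with protocatechuic acid at 15 min gave a difference of 5.51 ± 0.95 (SD over 10 probes), and its levels on the 6 later arrays were between 5.31 and 5.54. With glucose 3 of its 11 spots were well above background at 15 min, and with protocatechuic acid all 11 were. The order of these genes was reversed with the processed signal (6.41 for ARAD1C42790g and 7.5 for ARAD1A09350g) and by the brightest probe (5.06 and 6.44).

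Of the 10 genes with the largest increase among those whose probes all moved the same way, 9 returned to the glucose level by 30 min. Their differences were between 3.74 and 6.11 at 15 min, between -0.60 and 0.56 at 30 min, between -0.34 and 0.07 at 2 h and between -0.35 and 0.25 at 5 h. The level of these 9 genes on the protocatechuic acid array was between 8.92 and 11.92 at 15 min and between 4.96 and 6.09 at 30 min. The exception was a gene of chromosome Arad1D that belongs to the run of neighbours described further on.

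The same brief course was seen over the whole set of higher genes. Of the 376 genes, 347 (92.3%) had no difference of at least 1 at any later time. Most of all compared genes had none either. At each later time the share that was higher was larger among the 376 genes than over all compared genes. At 30 min 21 of them (5.59%) were higher, beside 115 of all 6036 compared genes (1.91%), at 2 h 24 (6.38%) beside 108 (1.79%), and at 5 h 10 (2.66%) beside 48 (0.795%). Their median differences at the later times were -0.03, 0.01 and 0.00. The later values come from arrays that played no part in choosing these genes.

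The levels show which array set the difference apart. The median level of the 376 higher genes was 5.54, 5.38, 5.64 and 5.72 with glucose in the order of time, and 7.35, 5.42, 5.69 and 5.75 with protocatechuic acid. On the protocatechuic acid array at 15 min, 210 of the 376 genes were at least 1 above the highest of the other 7 arrays. Among all compared genes, the number that stood so far above the other arrays was 210 for the protocatechuic acid array at 15 min, 48 for the glucose array at 15 min, and between 0 and 31 for each of the remaining 6 arrays.

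For the lower genes it was the glucose array at 15 min that differed from the rest. The median level of the 127 genes was 8.16 with glucose at 15 min and 7.02, 6.52 and 6.72 at the later times. With protocatechuic acid it was 6.79 at 15 min, followed by 6.98, 6.47 and 6.49. Relative to the median of the 6 later arrays, 86 of these 127 genes were at least 1 higher on the glucose array at 15 min, and 19 were at least 1 lower on the protocatechuic acid array. Thus the group called lower consisted mainly of genes that were high in glucose alone shortly after the change of medium and not as high where protocatechuic acid was present. Of the 127 genes, 108 (85.0%) had no difference of -1 or less at any later time, and most of all compared genes had none either. With levels set against the spike-in control probes the share was 62.8% of the genes then called lower. At 30 min 5 (3.94%) were lower beside 0.431% of all compared genes, at 2 h 7 (5.51%) beside 0.845%, and at 5 h 12 (9.45%) beside 1.47%. Higher by at least 1 at these times were 9 (7.09%), 5 (3.94%) and 2 (1.57%) of the 127 genes. Over all compared genes these shares were 1.91%, 1.79% and 0.795%.

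**Figure D2:**
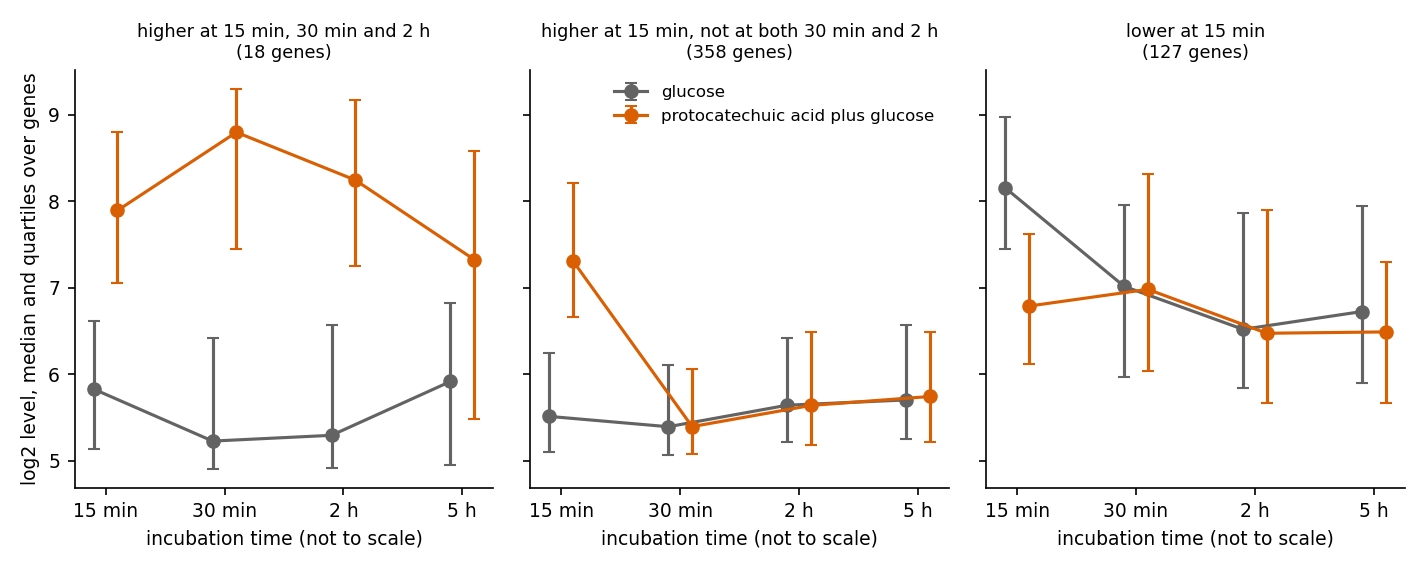
Median log2 level over genes (points) with quartiles (bars) on each of the 8 arrays, for the 18 genes higher at 15 min, 30 min and 2 h, the other 358 genes higher at 15 min, and the 127 genes lower at 15 min. The 358 genes had a median of 7.30 with protocatechuic acid at 15 min and 5.39 at 30 min, beside 5.51 and 5.39 with glucose, while the 18 genes went from 7.89 to 8.80.

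The largest decrease was that of ARAD1D25102g, again without a name in the files. Its level was 10.39 with glucose and 7.59 with protocatechuic acid at 15 min, a difference of -2.80 ± 0.23 (SD over 5 probes). At 30 min, 2 h and 5 h its levels were 8.83, 9.40 and 8.29 with glucose and 9.28, 10.60 and 8.66 with protocatechuic acid. The lowest of its 8 levels was thus that with protocatechuic acid at 15 min, and the difference was 0.45, 1.20 and 0.37 later. For ARAD1D27170g the level was 8.04 with glucose and 5.75 with protocatechuic acid at 15 min, a difference of -2.29 ± 0.89 (SD over 10 probes). This gene was at 5.75, 5.09 and 5.00 with glucose at the later times and at 7.40, 5.37 and 5.37 with protocatechuic acid. A high level was therefore found at 15 min with glucose and at 30 min with protocatechuic acid. The 10 largest decreases lay between -2.80 and -1.80, with an SD over probes of 0.15 to 0.89.

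Only 18 of the 376 higher genes were also higher by at least 1 at both 30 min and 2 h, and this small group took the opposite course from the rest. Its median differences in the order of time were 1.63, 2.50, 2.09 and 0.94, beside 1.51, -0.04, 0.00 and -0.01 for the other 358 genes. The later values chose these 18 genes and are given as a description. Among the 376 genes, 18 had a larger difference at 30 min than at 15 min, and 16 of these belonged to the group of 18. Differences of at least 1 at all 4 times were found for 8 genes. A further 94 genes were higher by at least 1 at 30 min without being so at 15 min, and their median difference at 15 min was -0.16.

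A compact part of this group lay side by side on chromosome Arad1D. Identifiers number the genes along a chromosome in steps of 22, and 7 successive identifiers were all higher at 15 min, at 30 min and at 2 h. They are those whose numbers are 660 below the numbers from ARAD1D18348g to ARAD1D18480g. Their differences at 15 min were between 1.14 and 5.09, with a median of 2.11, and every one of the 10 probes of each of the 7 genes was higher with protocatechuic acid. The 8 genes on either side had differences between -0.79 and 0.91. The length of the run depended on the processing. It was 4 with an offset of 50 and control spots left out and at a difference of 2, and 3 by the brightest probe and with either filter for spots above background on both arrays.

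The fourth gene of the run differed most, and in contrast to the genes with larger differences at 15 min it stayed high. Its level was 5.59, 4.94, 5.15 and 5.78 with glucose at the successive times, and 10.68, 13.55, 11.50 and 12.15 with protocatechuic acid. The early difference was 5.09 ± 0.59 (SD over 10 probes), and the later ones were 8.61, 6.36 and 6.37. The other 6 members had their largest difference at 30 min as well, but had lost most of it at 5 h. The fifth gene had levels of 5.72 with glucose and 8.32 with protocatechuic acid at 15 min, and its differences were 2.60, 4.68, 3.91 and 1.46 at the 4 times. The third gene had levels of 4.71 and 6.82 at 15 min, with differences of 2.11, 4.54, 3.99 and 0.90. For the first, levels of 4.97 and 7.05 at 15 min gave 2.08, followed by 3.19, 2.61 and 0.67. The second and the seventh were the weakest, with levels at 15 min of 4.98 and 6.12 and of 4.86 and 6.03, and over the alternatives their differences were between 0.65 and 2.72 and between 0.20 and 2.95. With glucose, between 1 and 3 spots of the first, the second, the third and the seventh gene were well above background, so their glucose levels lie close to the limit of measurement. The gene just before the run had a difference of -0.11 at 15 min and of 2.10 at 30 min, and thus joined it only later.

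**Figure D3:**
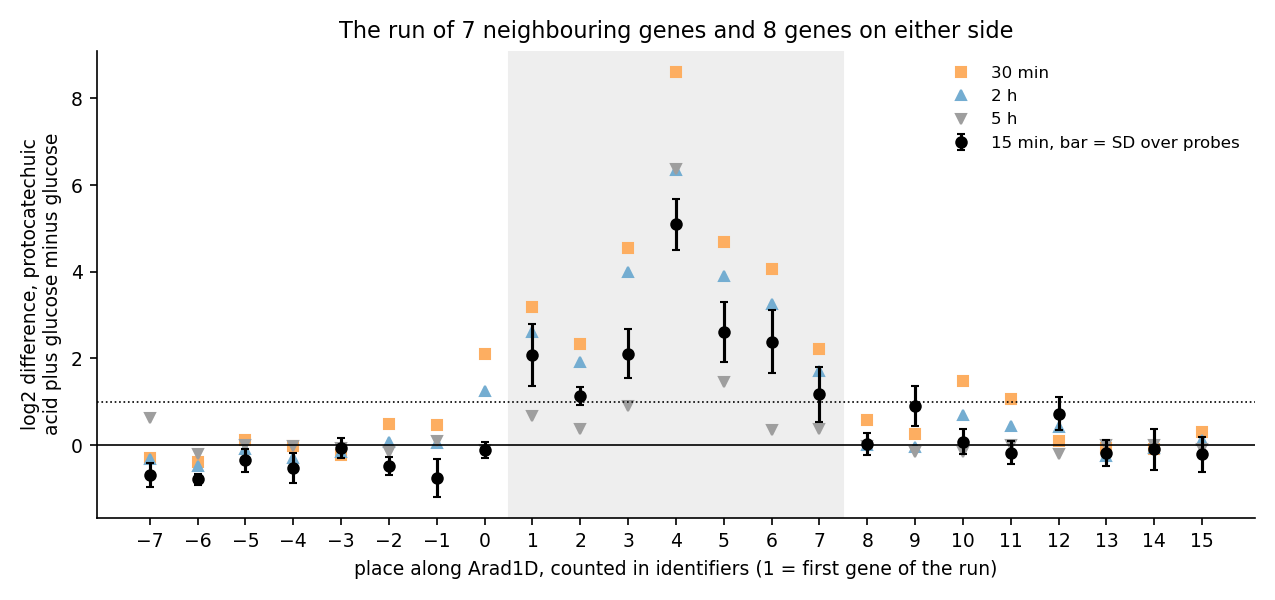
Log2 difference (vertical axis) of the 7 neighbouring genes (shaded) and of 8 genes on either side, in the order of their identifiers, at 15 min (black, bars are the SD over probes) and at the later times. All 7 lie above the dotted line at 1 at 15 min and higher still at 30 min, and the fourth reaches 5.09 and 8.61.

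Apart from the run, genes called together stood mostly in pairs. Among the 376 higher genes, 49 (13.0%) stood next to another higher gene, the 7 of the run included, beside 718 of 6035 compared genes (11.9%). Beside the run of 7 there were 2 runs of 3 and 18 pairs. Of the 127 lower genes, 14 (11.02%) stood next to another lower gene, all of them in pairs. This was a larger share than over all compared genes (244 of 6035, 4.04%). With an offset of 50 and control spots left out, these last shares were 2.82% and 2.30%. Higher genes were found on all 4 large chromosomes, 51 of 852 on Arad1A, 64 of 1034 on Arad1B, 115 of 1955 on Arad1C and 143 of 2131 on Arad1D, which is between 5.88% and 6.71% beside 6.23% of all compared genes. None of the 33 mitochondrial genes that were compared reached a difference of 1, beside 8.33% of all compared genes, and their differences were between -0.79 and 0.62.

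Genes with a named place in the breakdown of tannins and aromatic acids come mostly from lists that the study drew up with these arrays in hand, so that their direction is not independent evidence. Of 8 genes of the upper route, which leads from tannin to the opened ring and its products, 7 had probes and all 7 were compared. With identifiers as the study names them, 2 of these were higher and 0 were lower. The median difference, which is that of ARAD1D18458g, was 0.52, beside -0.11 over all compared genes and 6.23% of them higher. AGDC1 (ARAD1C45716g), the gallic acid decarboxylase, had no probe under its identifier and was not analysed here.

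The tannase genes hardly differed at 15 min. ATAN1 (ARAD1A06094g), which encodes tannase 1, had levels of 5.17 with glucose and 5.28 with protocatechuic acid, a difference of 0.11 ± 0.45 (SD over 10 probes), with 8 of 12 spots well above background on both arrays. The putative tannase ATAN2 (ARAD1A19822g) had levels of 4.78 and 4.98, with 4 of 10 spots above background on both. For both genes the difference was smaller than the spread over probes, and it was between -0.01 and 0.40 at the later times.

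Both genes annotated as 2-oxopent-4-dienoate hydratase, an enzyme of the steps that follow extradiol ring opening in bacteria, were higher, and their differences were larger at 30 min and 2 h than at 15 min. ARAD1A09218g had levels of 5.90 with glucose and 7.06 with protocatechuic acid, a difference of 1.15 ± 0.34 (SD over 10 probes) in which every probe took part. Its difference was 2.80 at 30 min, 2.30 at 2 h and 1.75 at 5 h. ARAD1C00330g, which the study also lists among its hydroxylase candidates, had levels of 4.76 and 6.17. It had 0 of 12 spots well above background with glucose and 12 of 12 with protocatechuic acid. Its bound of 2.66-fold equals the measured difference of 1.41 in the deposited values and is not a strict minimum. All 10 probes were higher, by 0.79 to 2.22. At the later times its difference was 2.52, 2.28 and 0.97. With an offset of 50 and control spots left out, neither gene passed the limit (0.83 for ARAD1A09218g and 0.79 for ARAD1C00330g), and ARAD1A09218g also missed it by the mean over spots (0.99) and by the brightest probe (0.71). As the study names them, these were the only 2 listed identifiers among the 18 genes higher at 15 min, 30 min and 2 h. The 4-oxalocrotonate decarboxylase gene ARAD1A15158g was near the limit, with levels of 4.71 and 5.62, a difference of 0.91 ± 0.51 (SD over 10 probes), and 2 and 9 of its 11 spots above background. ARAD1D18348g, listed as 4-hydroxy-2-oxovalerate aldolase or 3-oxoadipate succinyl-CoA transferase, had levels of 7.41 and 7.05 under this identifier, which is read a second way below.

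Of the 8 hydroxylase candidates, among them ARAD1C00330g, 2 were higher, 0 were lower and the median difference was -0.06, while their mean was 0.25. The other one was ARAD1C03498g, a candidate for the enzyme that would exchange the carboxyl group of protocatechuic acid for a hydroxyl group. Its level was 5.70 with glucose and 7.47 with protocatechuic acid, a difference of 1.76 ± 0.68 (SD over 10 probes), with all probes higher. Unlike both hydratase genes it belonged to the genes with a brief difference, which was 0.28, 0.23 and -0.29 at the later times. The remaining 6 candidates, ARAD1D18392g, ARAD1D27984g, ARAD1C08580g, ARAD1C08558g, ARAD1A17402g (found by a sequence search) and the phenol hydroxylase gene ARAD1D18502g, had differences between -0.54 and 0.10. Among the latter, ARAD1C08580g had 1 spot above background in all, with protocatechuic acid. Of the 3-oxoadipate enol-lactone hydrolase genes, whose product acts near the end of the route, ARAD1D18480g had a level of 10.20 on both arrays, and ARAD1D09306g had no spot above background on either. All ARAD1D identifiers in this paragraph are read as the study names them. Their values may be those of other genes, and a second reading is given below.

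The values under ARAD1D18458g, the identifier of the catechol-1,2-dioxygenase gene ACDO1, have to be read with its probes in view. The levels were 4.99 with glucose and 5.50 with protocatechuic acid, a difference of 0.52 ± 0.18 (SD over 10 probes). All 10 probes were higher, by 0.05 to 0.65, and 2 and 7 of the 11 spots were well above background. The difference of the medians is larger than the differences of most of its probes, and by the mean over spots it was 0.30. Probe names close with a number, taken here as the place in the gene where the probe begins. On this reading the probes start between positions 815 and 1618, and the last ends at position 1677, past the length of the ACDO1 open reading frame, so that the values under ARAD1D18458g cannot be taken as those of ACDO1. The identifier whose number is 660 lower, the sixth gene of the run, has probes that start between positions 76 and 942 and end within it at position 1001. Its levels were 5.57 with glucose and 7.95 with protocatechuic acid at 15 min, a difference of 2.39 ± 0.73 (SD over 10 probes), with every probe higher, and its differences were 4.07, 3.26 and 0.35 later. Of the 10 probes of ARAD1D18458g, 7 start after that position. Of this pair, only the lower identifier has probes that end within the reading frame, and no gene sequence was matched here. Probes of other genes of the run end within it too, at position 972 for the second and 885 for the fifth. The fit therefore does not single out the sixth gene.

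The other listed genes of chromosome Arad1D were therefore also read with 660 subtracted. The paper gives a reading frame for ACDO1 only, and protein lengths for some of the others. For ARAD1D18502g the probes end at position 480 as named and at 1942 with 660 subtracted. For ARAD1D27984g they end at 494 and at 806. All of these ends lie within the coding lengths that the protein lengths imply, so they do not decide between the readings. Read in this way, 4 of the 7 compared genes of the upper route (57.1%) were higher, with a median difference of 1.15. Of the 8 hydroxylase candidates 3 (37.5%) were higher, with a median of 0.05. Over all compared genes 6.23% were higher and the median was -0.11. The run then holds ARAD1D18348g as its first gene, the hydroxylase candidate ARAD1D18392g in the third place, ACDO1 in the sixth and the lactone hydrolase gene ARAD1D18480g in the seventh, with differences of 2.08, 2.11, 2.39 and 1.17. The other listed identifiers of this chromosome lay outside the run on this reading, with differences of -0.30 for ARAD1D27984g, 0.02 for ARAD1D18502g and -1.23 for ARAD1D09306g.

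**Figure D4:**
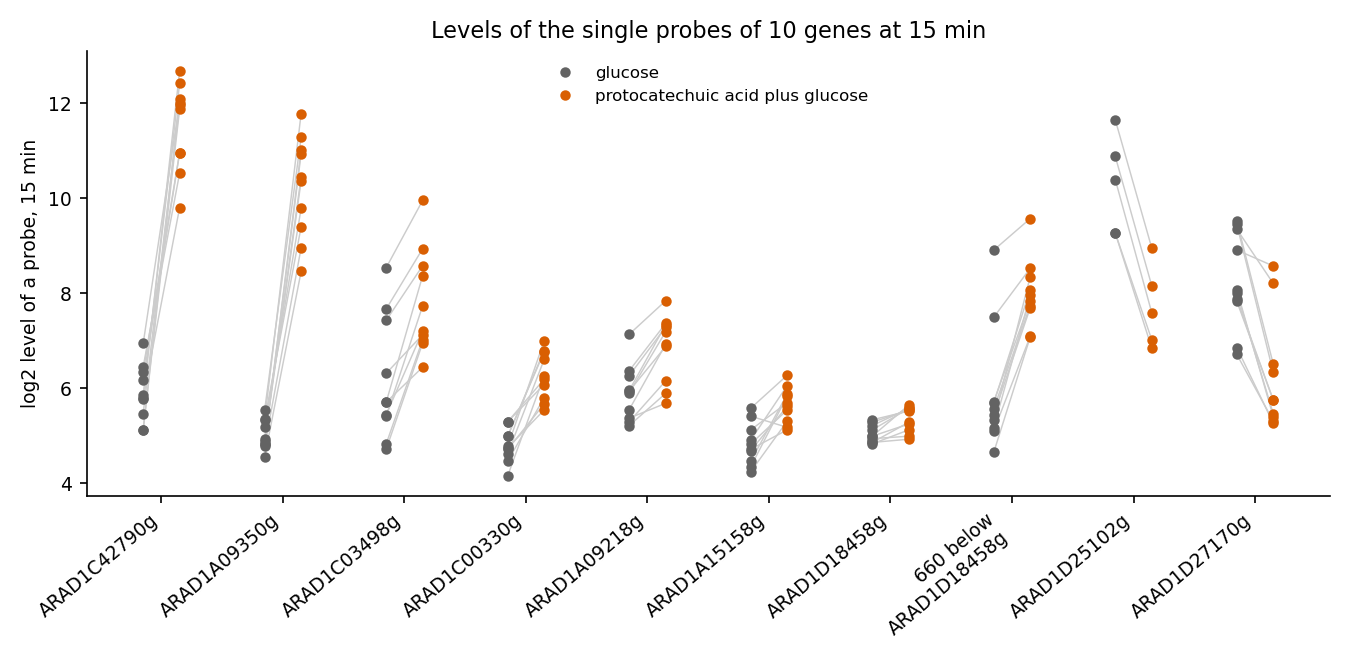
Log2 levels of the single probes of 10 genes at 15 min, with glucose (grey) and protocatechuic acid plus glucose (orange), lines joining the values of a probe. All 10 probes of ARAD1C42790g and ARAD1A09350g were at least 3.90 higher with protocatechuic acid, the probes of ARAD1D18458g differed by 0.05 to 0.65 and those of the identifier 660 below it by 0.66 to 3.01.

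Some genes were measured on only 1 of the 2 arrays. With at least 50% of the spots well above background on that array and 0 on the other, 28 genes were seen only with protocatechuic acid and 6 only with glucose. The former had bounds of 1.14-fold to 6.69-fold in the deposited values, with a median of 1.90-fold, and 14 of them were among the 376 higher genes. The gene with the largest bound had levels of 4.65 with glucose and 7.45 with protocatechuic acid, 0 and 11 of 11 spots above background, and 10 of 10 probes higher. Its levels on the 6 later arrays were between 4.86 and 5.17, so it too was high on the protocatechuic acid array at 15 min alone. The largest bound in the other direction was 2.59-fold, for a gene with levels of 6.27 with glucose and 4.80 with protocatechuic acid and 10 and 0 of 10 spots above background.

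Over all probes and compared genes, the error of a difference within the pair of arrays was mostly smaller than the limit of 1. The median SD over probes was 0.64 for higher genes, 0.27 for lower genes and 0.28 over all compared genes. For the 5225 probes placed on 2 spots, the differences measured by both spots lay 0.20 apart in the median, and 0.69 apart at the 95th percentile. For 4661 compared genes with at least 10 probes, values from alternate probes lay 0.13 apart in the median and 0.48 at the 95th percentile, and 239 of 318 such higher genes and 61 of 87 such lower genes passed the limit with both sets of probes. The 7 spike-in control probes that were well above background on both arrays differed by -0.24 to 0.00, with a median of -0.03. In 4 equal fields of the array surface the median difference of the spots was between 1.41 and 1.54 for higher genes, between -1.24 and -1.16 for lower genes and between -0.23 and 0.00 for all compared genes. These values bear on the arrays and not on the spread between cultures. The higher and lower genes were chosen by the same spots, so for them the fields and the alternate probes are not an independent check. No spot was saturated, and 69.4% of the yeast spots with glucose and 70.0% with protocatechuic acid were well above background at 15 min, beside 58.9% to 70.2% on the later arrays.

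The difference varied with the place of a probe in its gene. Over compared genes with probes out to base 600 or further, the median difference of probes was -0.23 in the first of 5 equal parts of the span, at the 5′ end, and -0.04 in the last. In higher genes it went from 0.81 to 1.73 and in lower genes from -1.02 to -1.12, with -1.29 in the middle. Of 205 higher genes with probes in both parts of the span, 183 passed the limit by the probes of the 3′ part and 114 by those of the 5′ part. The difference also varied with the level of a gene. When genes were put into 10 equal classes by their mean on the 6 later arrays, the median difference was 0.00 in the lowest class and -0.29 in the ninth, and the share of lower genes was 0.66% and 4.64% in these, whereas the share of higher genes was 4.47% and 4.64%, and at most 8.13% in the classes between them. The part of either in the counts of higher and lower genes was not tested.

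**Figure D5:**
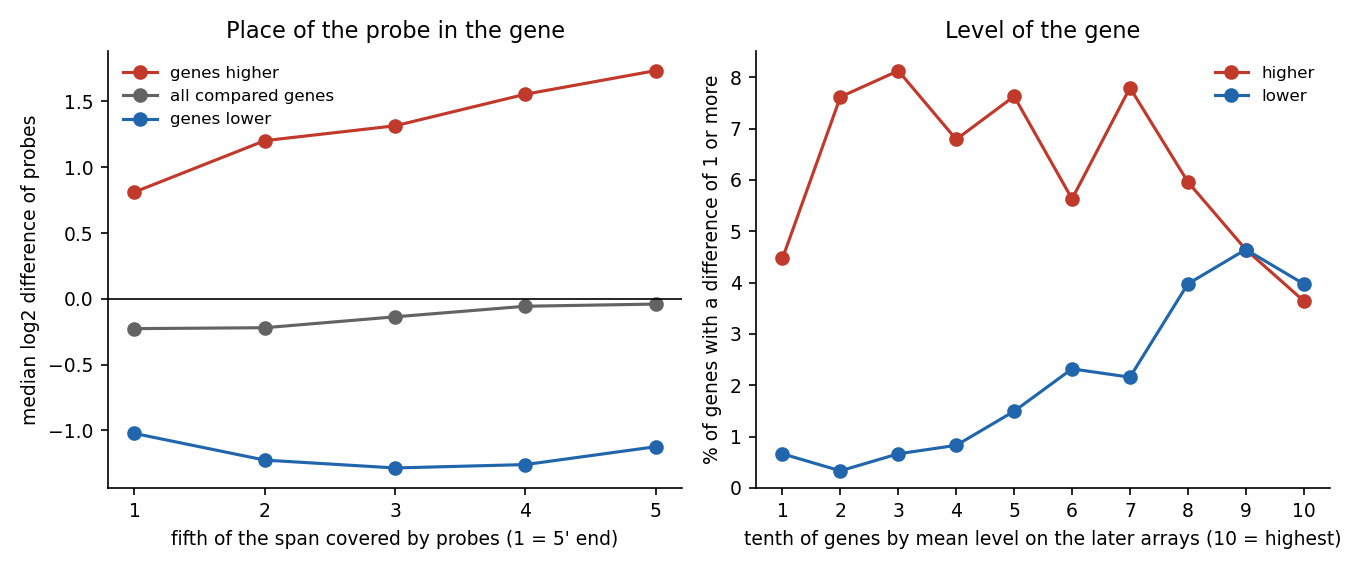
Left, median log2 difference of probes (vertical axis) by the part of the span that the probes of a gene cover (5 equal parts), for higher, lower and all compared genes, with values for higher genes that go from 0.81 at the 5′ end to 1.73 at the 3′ end. Right, percentage of genes called higher or lower by class of the mean level on the 6 later arrays (10 equal classes), in which the lower genes go from 0.66% to 4.64% in the ninth class and 3.97% in the last.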

How the data were processed

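The authors scanned the arrays with Agilent Feature Extraction (11.5.1.1, per the submitters' notes). The deposited scanner files hold the intensity of each spot, its background and marks for spots well above background. The log2 values in the authors' table were made by normexp background correction and quantile normalization in limma. Recomputing both steps from the scanner intensities with an offset of 16, control spots included, came within 0.0478 of every deposited log2 value, so scale and direction are known and nothing was centred. The offset raises low levels and so compresses differences of dim genes.

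Values were joined to probe names by spot number. A gene is the median over its spots, identifiers were taken from probe names, and no table that pairs them with gene names was used, so that of the genes not named by the study the 2 with the largest increase and the 2 with the largest decrease are printed by identifier. Those were taken from genes with at least 5 probes that all moved the same way. All listed genes, the largest gene seen on 1 array in each direction and the longest run of neighbours are described too. The members and lists were chosen with earlier results of these data known. A gene not above background on an array has a bound, taken against the higher of its own value and the lowest value well above background there. That lowest value is a single spot of the whole array, so a bound can equal the measured difference and is not a strict minimum. The scripts were tested on simulated data. R 4.3.3, limma 3.58.1 and Python 3.11.15 were used. The number of arrays limits the precision.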

Additional observations from a re-analysis of the deposited data

Results flagged for a closer look

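Of the genes called at 15 min, 5 higher genes were lower by at least 1 at a later time and 13 lower genes were higher. At the single later times 0.27% to 0.80% of the higher genes were lower, beside 0.43% to 1.47% of all compared genes. Of the lower genes 1.57% to 7.09% were higher, beside 0.80% to 1.91% of all compared genes. For 2 genes printed by identifier the difference between the media passed a size of 1 in opposite directions at 15 min and at a later time. ARAD1D25102g differed by -2.80 at 15 min and by 1.20 at 2 h. ARAD1D27170g differed by -2.29 at 15 min and by 1.65 at 30 min. With 1 array for each medium and time, the difference between the times was not tested.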

How the results depend on the processing

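No paired analysis was possible because each medium and time has 1 array. With the scanner signal, an offset of 50 and quantile normalization without control spots, 220 genes were higher and 71 lower, 8.18% and 2.82% of them had a neighbour called alike (beside 6.98% and 2.30% of all compared genes), the longest run was 4, the upper route had 0 genes higher and the hydroxylase candidates 1, the spots of a probe lay 0.12 apart, and probes of the last of 5 parts of the span exceeded those of the first by 0.12. With an offset of 0, 269 genes were lower, 19.3% of them beside another (8.37% of all), and the median of the upper route was 0.90. With the processed signal 780 genes were higher and 719 lower, 23.7% and 27.8% had a neighbour called alike (23.8% and 21.6% of all), the list medians were 0.97 and -0.53, the spots of a probe lay 0.30 apart, and the last part exceeded the first by 0.30. With the mean over spots 1 gene of the upper route was higher. By the brightest probe 281 genes were lower, 16.7% of them beside another (8.90% of all), the longest run was 3 and the median of the hydroxylase candidates was 0.22. With only spots well above background on both arrays, the longest run was 3, 1 gene of either list was higher and the median of the upper route was 0.11. The same 4 values were found for genes with at least 50% of their spots above background on both arrays. At a difference of 2, 101 genes were higher and 3 lower, 5.94% and 0.00% had a neighbour called alike (3.23% and 0.10% of all), the longest run was 4 and 0 genes of either list were higher. Within 2 identifiers 19.9% of higher and 17.3% of lower genes had such a neighbour, beside 22.2% and 7.79% of all compared genes. The mean of the hydroxylase candidates was 0.25. With 660 subtracted, 4 genes of the upper route were higher, with a median of 1.15. Chosen after seeing the data, leaving out probes marked X at the end of their name gave 11 genes seen with glucose alone, loess between the 2 arrays gave 69 lower genes, 5.80% of them beside another (2.20% of all), and probes of the second part of the span gave 53 genes seen with protocatechuic acid alone and 27 with glucose alone. Centring on the median of compared genes gave 436 higher and 93 lower genes. The causes were not tested.

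Of the 258 values recomputed for the main results, 208 kept their sign and stayed within 1.5 times the value reported, or, for list medians, within the median SD over probes. This count overstates how far the results were tried, because many values could not change under a given alternative. The counts of genes seen on 1 array, for instance, rest on the scanner's marks, which no rescaling alters. Alternatives that changed only the filter or the limit left the differences of single genes as they were. ARAD1C42790g, ARAD1A09350g, ARAD1C03498g, ARAD1D25102g and ARAD1D27170g passed a difference of 1 under every alternative that gave them a value, ARAD1C00330g under 14 of 15 (0.79 to 4.35) and ARAD1A09218g under 14 of 17 (0.71 to 1.66). In the run on Arad1D the first, the fourth and the fifth gene passed it under every alternative that gave them a value, the sixth under 16 of 17, the third under 14 of 16, and the second and the seventh under 13 of 16.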
